A study of Mus musculus with 3 samples.

Results

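The calcium/calmodulin-dependent protein kinase (CaM kinase) genes were examined in NIH3T3 cells, an established line of mouse embryonic fibroblasts. The rule took genes by name and used no measured value, and the set held 9 of the 55573 genes listed. It covered the 4 subunit genes of CaM kinase II (Camk2a, Camk2b, Camk2d and Camk2g), the inhibitor gene Camk2n1, the upstream kinase genes Camkk1 and Camkk2, and the kinase genes Camk1 and Camk4. Transcripts were measured by UMI-RNAseq, in which each molecule carries a random barcode so that copies made during amplification can be removed. There were 3 libraries from untreated NIH3T3 cells grown in DMEM with 10% fetal bovine serum, with no transgene, treatment or second condition in the labels. The study used them as a reference for fluorescence in situ imaging, and its imaging of CaMKIIα mRNA was done in mouse brain, so the imaged tissue and the sequenced cells differ for Camk2a. It is not stated whether the libraries came from separate cultures, and the spread between them may be technical.

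When calcium rises in a cell, it binds calmodulin, and calcium-loaded calmodulin switches on the CaM kinases. CaM kinase II assembles from subunits encoded by 4 paralogous genes and keeps part of its activity after calcium falls, because neighbouring subunits phosphorylate each other on a threonine in the regulatory segment. Camk2a and Camk2b are the predominant subunit genes of brain, whereas Camk2d and Camk2g are used in many tissues. The other arm is a cascade, in which the CaM kinase kinases phosphorylate CaM kinase I and CaM kinase IV, and CaM kinase IV acts in the nucleus of neurons and T cells on transcription factors such as CREB.

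The paralogs are alike in protein but can be told apart by their mRNA. The coding stretch around the autophosphorylation site is shown for 3 of the 4 subunit genes, because the proteins are nearly identical there and the bases show what separates reads of these genes. Capitals mark the codon of threonine 287. Each stretch is 75 bases, read 5′ to 3′ along the mRNA, and lies in exon 11 of a coding isoform in GENCODE M21 on GRCm38. The stretch of Camk2b is at chr11:5988961-5989035 on the minus strand, that of Camk2d at chr3:126797705-126797779 on the plus strand, and that of Camk2g at chr14:20760403-20760477 on the minus strand.
Camk2b: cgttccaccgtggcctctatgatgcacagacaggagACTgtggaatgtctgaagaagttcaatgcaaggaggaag
Camk2d: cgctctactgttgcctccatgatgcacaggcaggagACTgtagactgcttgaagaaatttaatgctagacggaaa
Camk2g: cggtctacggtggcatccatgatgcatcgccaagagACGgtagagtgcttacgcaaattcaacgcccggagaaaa

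Across these 75 bases Camk2b and Camk2d differed at 16 positions, Camk2d and Camk2g at 21, and Camk2b and Camk2g at 24. The encoded 25 residues differed at 1 or 2 positions in each pair. The longest run of identical bases was 11 for Camk2b with Camk2d, 8 for Camk2b with Camk2g and 11 for Camk2d with Camk2g. Over whole transcripts, 8 of the 9 genes shared none of their distinct 75-nt words with an annotated transcript of another gene. The exception was Camk1, with 96 of 6274 words (1.53%) shared with Ogg1, a DNA repair gene on the opposite strand.

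The inhibitor genes Camk2n1 and Camk2n2 are shown for the same reason, since the 2 small proteins share the core that binds the active kinase while their transcripts were at very different levels. Capitals mark 7 codons of that core, for the residues RPPKLGQ, and the ends of the core were not determined here. The stretch of Camk2n1 runs from chr4:138455285-138455351 in exon 1 to chr4:138456718-138456725 in exon 2 on the plus strand, and that of Camk2n2 from chr16:20621026-20621092 in exon 1 to chr16:20620236-20620243 in exon 2 on the minus strand (GRCm38). Camk2n2 is no member of the set and was described after its values were seen.
Camk2n1: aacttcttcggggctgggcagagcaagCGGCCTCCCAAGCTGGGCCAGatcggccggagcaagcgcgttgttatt
Camk2n2: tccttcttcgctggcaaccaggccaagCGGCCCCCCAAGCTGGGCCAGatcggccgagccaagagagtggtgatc

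The 2 inhibitor stretches differed at 20 of 75 bases and at 6 of 25 residues, with a longest identical run of 23 bases.

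Levels are given as FPKM, the fragments counted on a gene per kilobase of its length and per 1000000 fragments counted in the library. The libraries held 13959723 to 14423209 counted fragments, so that 1 fragment on a gene of 1 kb was worth 0.0693 to 0.0716 FPKM. FPKM is a level per length, and levels of different genes are compared on this scale. The fibroblast label held in the data. All 10 fibroblast marker genes had a mean of at least 1 FPKM, with a median of 489 FPKM, and the highest was the matrix protein gene Fn1 at 4377 FPKM. The extraction text of the labels speaks of retina, but none of 8 retina markers reached a mean of 1 FPKM, and their summed level was 0.483 to 1.15 FPKM per library. The highest of them was Rcvrn, a photoreceptor calcium sensor, at 0.363 ± 0.225 FPKM (SD, n = 3). Of 12 neuron markers, 1 reached 1 FPKM. It was the tubulin gene Tubb3 at 5.46 FPKM, and 3 others were listed at 0 in every library. None of 5 T cell markers reached 1 FPKM, a limit met by 49.2% of protein-coding genes.

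Of the 9 CaM kinase genes, 5 (55.6%) had a mean of at least 1 FPKM: Camk2d, Camkk2, Camk1, Camk2g and Camkk1. The same limit was met by 23.2% of all genes listed and by 49.2% of the 21980 protein-coding genes, so the share among the CaM kinase genes was near that of protein-coding genes. The genes fell into levels far apart. Camk2d, Camkk2, Camk1 and Camk2g lay between 41.0 and 83.5 FPKM in every library, Camkk1 lay between 5.34 and 5.88 FPKM, and the remaining 4 genes did not exceed 0.633 FPKM in any library. The median over the 9 genes was 5.61 FPKM, beside 0.804 FPKM over protein-coding genes.

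**Figure D1:**
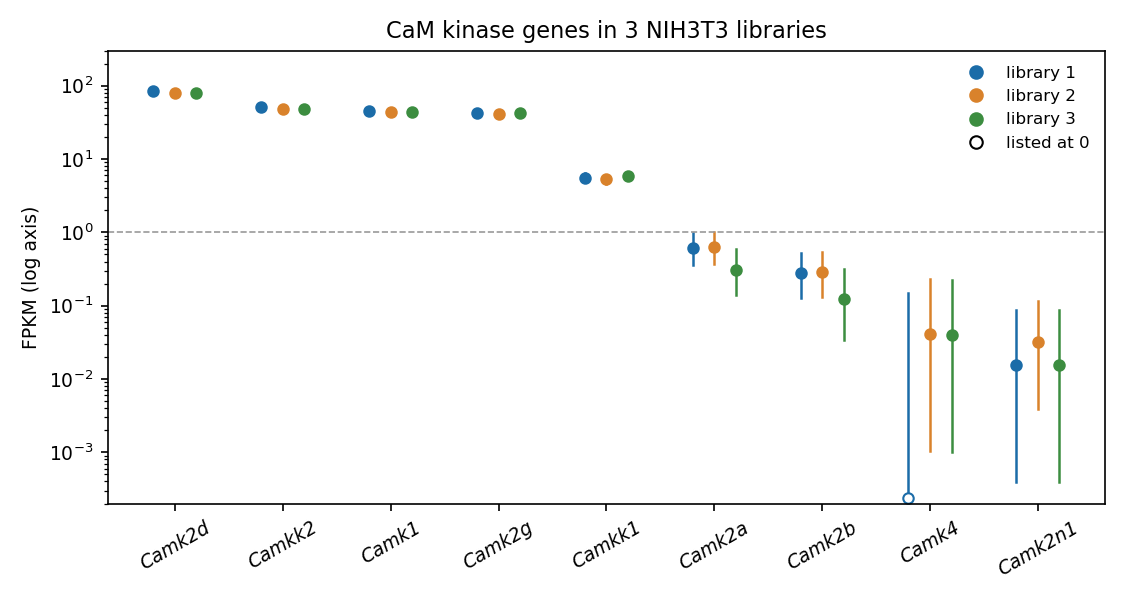
FPKM on a log axis for each of the 9 CaM kinase genes, with a point for each of the 3 libraries and vertical lines for the exact 95% Clopper-Pearson interval of its fragments, which covers counting error only. The open point marks Camk4, listed at 0 in library 1, and the dashed line is 1 FPKM. Camk2d stands highest at 79.4 to 83.5 FPKM, and the intervals widen toward Camk4 and Camk2n1, which rest on 2 and 4 fragments in all.

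Camk2d, the delta subunit gene and the main subunit gene of heart muscle, was the highest of the 9. It lies at chr3:126596302-126846326 on the plus strand and has 28 annotated isoforms, of which 11 are protein coding. Its levels were 83.5, 79.9 and 79.4 FPKM in libraries 1, 2 and 3 (80.9 ± 2.26, SD, n = 3), from 2959, 2739 and 2790 fragments. Library 1 was the highest and the other two were close together. Of protein-coding genes, 93.1% had a lower mean.

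Camk2g, the gamma subunit gene, lies at chr14:20734875-20794088 on the minus strand. It was at 42.2, 41.0 and 42.0 FPKM (41.7 ± 0.637, SD, n = 3), and 85.2% of protein-coding genes had a lower mean. Camk2d was above Camk2g in 3 of 3 libraries, at 1.98, 1.95 and 1.89 times its level. The mean ratio was 1.94 ± 0.0470 (SD, n = 3), or 0.95 ± 0.04 as the log2 of the ratio of FPKM + 0.1, and the interval from counting alone was 1.85 to 2.03. Flipping the signs of the log2 ratios over all combinations (an exact permutation test, two-sided) gave p = 0.25 (0.25 after Benjamini-Hochberg adjustment over 4 pairs), which is the smallest value that 3 libraries allow.

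Camk2a encodes the alpha subunit, a leading protein of the postsynaptic density of excitatory neurons. It lies at chr18:60925618-60988152 on the plus strand. In these fibroblasts it was at 0.613, 0.633 and 0.309 FPKM (0.518 ± 0.182, SD, n = 3), from 18, 18 and 9 fragments. Library 3 was lowest, but the 95% counting intervals of the libraries overlapped: 0.363 to 0.968, 0.375 to 1.00 and 0.141 to 0.586 FPKM. The coefficient of variation between libraries was 35.0%, beside 25.8% from counting alone. The summed retina markers were also lowest in library 3, at 0.993, 1.15 and 0.483 FPKM in libraries 1, 2 and 3, and the summed neuron markers were at 5.81, 7.30 and 5.93 FPKM. Most of the neuron sum was Tubb3, at 4.98, 6.12 and 5.29 FPKM. The other 11 neuron markers summed to 0.830, 1.18 and 0.639 FPKM, lowest in library 3 as Camk2a was, whereas the full neuron sum was lowest in library 1. The part of either list in the Camk2a values was not tested.

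Camk2b, the beta subunit gene, whose protein binds actin filaments in neurons, lies at chr11:5969644-6066362 on the minus strand. It was at 0.277, 0.286 and 0.124 FPKM (0.229 ± 0.0911, SD, n = 3), from 9, 9 and 4 fragments. As with Camk2a, library 3 was lowest and the counting intervals overlapped, with 0.0338 to 0.318 FPKM in library 3 against 0.127 to 0.526 FPKM in library 1.

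Camk2a rested on 45 fragments in all and Camk2b on 22, and in bulk RNA a low level in every cell cannot be told apart from a higher level in few cells. Camk2a was above Camk2b in 3 of 3 libraries, at 2.21, 2.21 and 2.49 times its level. The counting interval over the pooled fragments was 1.33 to 3.95 at the deposited lengths. On the log2(FPKM + 0.1) scale the ratio was 0.90 at those lengths and 0.47 with the longest isoform of each gene. It was 1.01 with the mean length of protein-coding isoforms and 0.91 undivided by length. Whether Camk2a exceeded Camk2b beyond counting error at lengths other than the deposited ones was not tested. Camk2d exceeded Camk2a 136-fold, 126-fold and 257-fold (173 ± 72.8, SD, n = 3), and the pooled fold was 156 with a counting interval of 117 to 215. Camk2g exceeded Camk2a 68.8-fold, 64.8-fold and 136-fold, with a pooled fold of 80.7 and an interval of 60.1 to 111. The large spread of both folds came with the low Camk2a value of library 3. For each of these 3 pairs the same exact permutation test returned p = 0.25, also after adjustment over 3 pairs. Without library 3 the log2 ratio of Camk2a to Camk2d was -6.82, beside -7.08 over all libraries.

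The 4 subunit genes summed to 127, 122 and 122 FPKM (123.4 ± 2.74, SD, n = 3). Camk2d made up 66.0%, 65.6% and 65.1% of that sum and Camk2g 33.3%, 33.7% and 34.5%. Camk2a contributed 0.419% ± 0.145 and Camk2b 0.185% ± 0.0727 (SD, n = 3). These shares depend on the length each gene's fragments are divided by, since the deposited values use the mean length over all annotated isoforms. With the longest isoform of each gene the share of Camk2d was 69.5% ± 0.371 (SD, n = 3), with the mean of protein-coding isoforms 64.3% ± 0.395, and, on a scale that is not per length, 77.1% ± 0.281 with no division at all. Camk2d was the highest and Camk2b the lowest of the 4 under each of these choices.

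**Figure D2:**
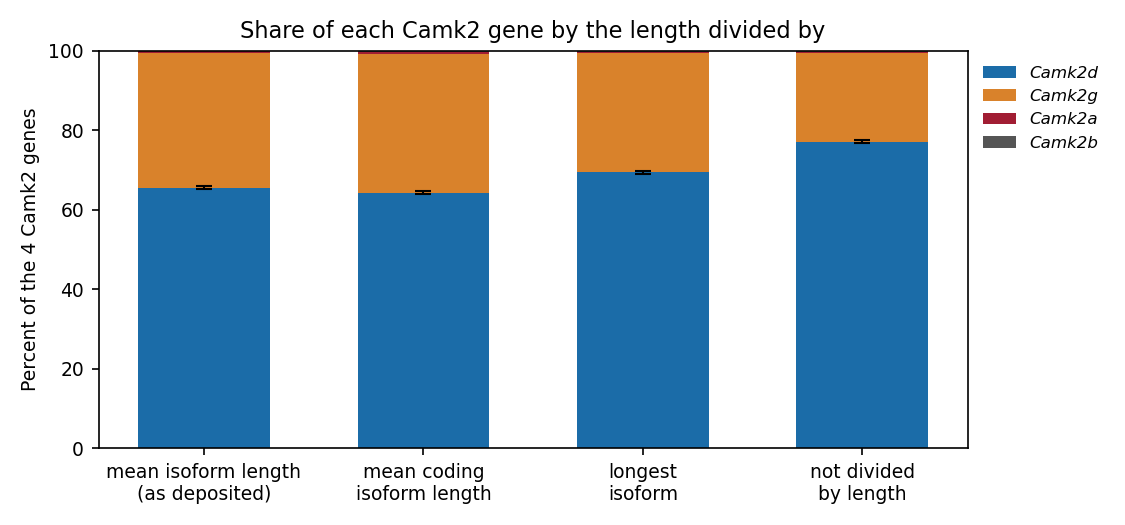
Percent of the summed level of the 4 Camk2 genes that each gene made up (mean over 3 libraries), for 4 choices of gene length. Error bars are the SD of the Camk2d share over libraries. The Camk2d share runs from 64.3% to 77.1%, and the Camk2a and Camk2b shares at the top of each bar are too thin to see.

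Camk2n1 encodes a small protein that binds and inhibits active CaM kinase II, and is abundant in brain. It lies at chr4:138454314-138460123 on the plus strand. It was at 0.0156, 0.0322 and 0.0157 FPKM, from 1, 2 and 1 fragments, so the 95% counting intervals reached up to 0.0869, 0.116 and 0.0876 FPKM and the libraries could not be told apart. The summed subunit genes exceeded it 5855-fold over the pooled libraries, with a counting interval of 2287 to 21489. The log2 of the ratio of Camk2n1 to the summed subunit genes, on FPKM + 0.1, was -10.00 ± 0.13 (SD, n = 3; exact two-sided sign-flip permutation p = 0.25, adjusted 0.25). With the longest isoform of each gene it was -8.75.

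The paralogous inhibitor gene Camk2n2 was at 12.8, 12.1 and 13.0 FPKM (12.7 ± 0.499, SD, n = 3), from 239, 218 and 241 fragments. Its level exceeded that of Camk2n1 601-fold over the pooled libraries, with a counting interval of 234 to 2211. Set against the summed subunit genes it was at 0.101, 0.0993 and 0.107 of their level (0.103 ± 0.00401, SD, n = 3). Of these 2 inhibitor genes, the transcript detected above 1 FPKM in NIH3T3 cells was therefore that of Camk2n2.

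The genes of the upstream kinases differed by more than the spread between libraries. Camkk2, which also phosphorylates the energy sensor AMPK, lies at chr5:122731170-122779409 on the minus strand and was at 50.8, 48.3 and 47.9 FPKM (49.0 ± 1.56, SD, n = 3). Camkk1 lies at chr11:73019008-73042073 on the plus strand and was at 5.60, 5.34 and 5.88 FPKM (5.61 ± 0.269, SD, n = 3). Library 1 was highest for Camkk2 and library 3 for Camkk1. Camkk2 exceeded Camkk1 by 9.06, 9.04 and 8.15 times (8.75 ± 0.521, SD, n = 3), with a counting interval of 8.04 to 9.50. The exact permutation test returned p = 0.25 (adjusted 0.25), and the levels of the 2 genes did not overlap. On the log2(FPKM + 0.1) scale the ratio of Camkk1 to Camkk2 was -3.10 ± 0.09 (SD, n = 3), and -2.22 with the longest isoform of each gene.

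Of the kinases they activate, Camk1, a cytoplasmic kinase of many tissues, lies at chr6:113334124-113343984 on the minus strand. It was at 44.9, 44.1 and 44.1 FPKM (44.4 ± 0.477, SD, n = 3). Its coefficient of variation, 1.07%, was the smallest of the 9 genes and lay below the 3.14% that counting alone gives. Exons of Camk1 overlap those of Ogg1 over 232 nt (3.88% of the Camk1 exons), and Ogg1 was at 13.7, 13.9 and 13.1 FPKM. Whether strand was used in the counting is not given in the sources used here, so fragments in that overlap cannot be assigned with certainty.

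Camk4, the nuclear kinase of neurons and T cells, lies at chr18:32934931-33191228 on the plus strand. It was listed at 0 in library 1 and at 0.0413 and 0.0403 FPKM in libraries 2 and 3, from 1 fragment each. The upper limits of the 95% intervals were 0.147, 0.230 and 0.224 FPKM in libraries 1, 2 and 3. By the other limit used for a count of 0, that of 3 fragments, library 1 allows a level of up to 0.120 FPKM. Camk4 exons overlap the antisense gene 2310026I22Rik over 72 nt, and that gene was listed at 0 throughout. Over the pooled libraries Camk1 exceeded Camk4 1643-fold, with a counting interval of 455 to 13577, and Camk1 was higher in 3 of 3 libraries (exact two-sided sign-flip permutation p = 0.25, adjusted 0.25). The T cell markers, which would accompany Camk4 in lymphocytes, summed to 0.0528, 0.330 and 0.146 FPKM, and the T cell receptor gene Cd3e was listed at 0.

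Ordered by mean FPKM, the genes ran Camk2d, Camkk2, Camk1, Camk2g, Camkk1, Camk2a, Camk2b, Camk4 and Camk2n1. Of the 8 pairs of neighbours in that order, 7 stood in the same order in all 3 libraries (exact two-sided sign-flip permutation p = 0.25 each, adjusted 0.286). The order was set by the means of these same libraries, so the agreement and the p-values are no independent support for it. Camk4 and Camk2n1 did not differ beyond their spread, with Camk4 higher in 2 of 3 libraries and a counting interval of the ratio from 0.116 to 8.94 (p = 0.75 by the same exact test). The closest of the well-measured pairs were Camkk2 over Camk1 at 1.10 ± 0.0232 and Camk1 over Camk2g at 1.06 ± 0.0143 (SD, n = 3), with counting intervals of 1.05 to 1.16 and 1.01 to 1.12.

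The places of Camk1, Camkk2 and Camk2d turned with the gene length. Divided by the mean length of its protein-coding isoforms, a choice made after the data were examined, Camk1 was at 65.9 ± 0.707 and came first, above Camk2d at 59.0 ± 1.65 and Camkk2 at 44.2 ± 1.41 FPKM (SD, n = 3). With the longest isoform Camk2d was at 36.0 ± 1.00, Camk1 at 29.6 ± 0.318 and Camkk2 at 19.5 ± 0.622 FPKM. Under each length Camk2g was the fourth and Camkk1 the fifth, followed by Camk2a and Camk2b. The lowest 2 genes also changed places with the length: with the longest isoform Camk2n1 was at 0.0212 ± 0.00957 and Camk4 at 0.0174 ± 0.0150 FPKM (SD, n = 3), a difference within their spread.

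**Figure D3:**
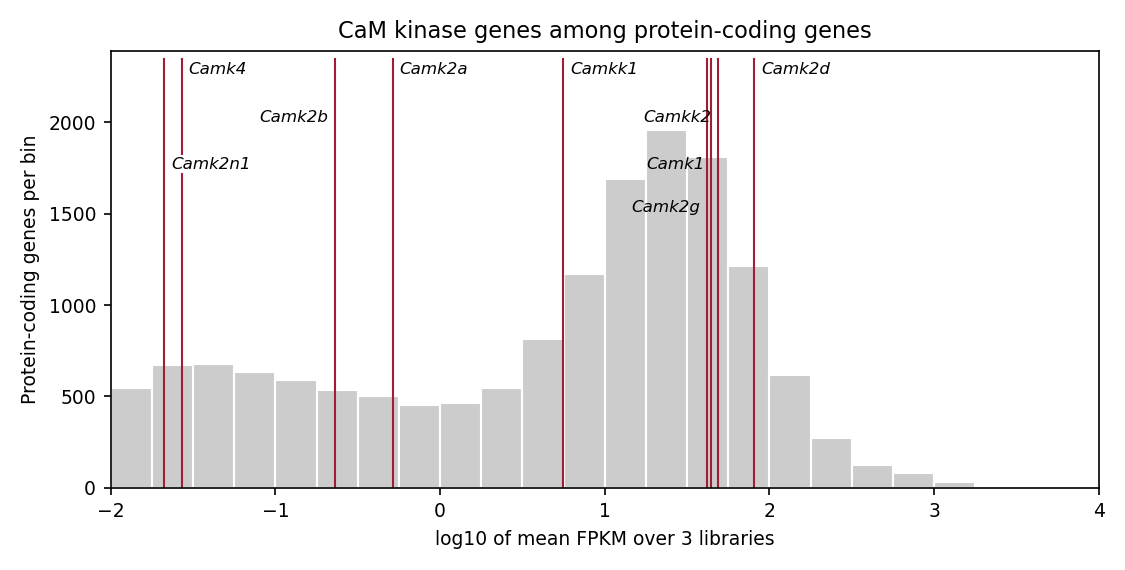
Number of protein-coding genes in bins of log10 mean FPKM over 3 libraries, with a vertical line at the mean of each CaM kinase gene. The 6553 protein-coding genes with a mean below 0.01 FPKM are not drawn. Camk2d, Camkk2, Camk1 and Camk2g sit at or to the right of the main peak, and Camk4 and Camk2n1 lie near the left end of the axis.

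The upstream signal and its readers were also measured, as lists chosen by function. Calm2, which encodes the calcium sensor calmodulin, was at 350.1, 351.4 and 354.6 FPKM (352.0 ± 2.33, SD, n = 3), above every CaM kinase gene in every library. The related Calml3 was listed at 0. Among 5 further genes of the CaM kinase I type and CaM kinase II inhibitors, Camk2n2 alone reached a mean of 1 FPKM, beside 49.2% of protein-coding genes. The lowest of the 5 was Camk1g at 0.0316 FPKM.

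Calcineurin, the calmodulin-activated phosphatase that opposes many kinase effects, had 6 of 8 subunit and regulator genes at 1 FPKM or more. That limit was met by 49.2% of protein-coding genes. Its catalytic subunit gene Ppp3ca was at 211.8, 207.5 and 202.7 FPKM, or 2.56 ± 0.0319 times Camk2d (SD, n = 3), and the regulator Rcan2 was listed at 0. Of 7 phosphatase genes that act on CaM kinases, 6 reached the limit, beside the same 49.2% of protein-coding genes. The highest was Ppp1cc, a catalytic subunit gene of protein phosphatase 1, at 159 ± 12.8 FPKM (SD, n = 3), and the lowest was Ppm1e, a CaM kinase phosphatase of neurons, at 0.169 ± 0.0393 FPKM.

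Of 20 genes for CaM kinase targets and CREB partners, 19 reached 1 FPKM, with a median of 35.8 FPKM. Over protein-coding genes the share was 49.2% and the median 0.804 FPKM. The highest was Vim, the intermediate filament protein vimentin, at 1489 ± 14.0 FPKM (SD, n = 3), and the lowest was Hdac9, a class IIa histone deacetylase, at 0.938 ± 0.249 FPKM. The related Hdac4, a known CaM kinase II substrate named here after its values were seen, was at 64.2, 63.4 and 64.5 FPKM.

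Of 11 postsynaptic partners of CaM kinase II, 4 reached 1 FPKM and the median was 0.0833 FPKM, beside 49.2% and a median of 0.804 FPKM over protein-coding genes. The lists were not compared with each other by a test. The highest was the actin cross-linker gene Actn4 at 307 ± 3.45 FPKM (SD, n = 3), whereas its muscle and brain paralog Actn2 was listed at 0. The subunit gene Grin2b of the NMDA receptor, the best-known anchor of CaM kinase II at synapses and named after its values were seen, was listed at 0 in libraries 1 and 2 and rested on 1 fragment in library 3.

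**Figure D4:**
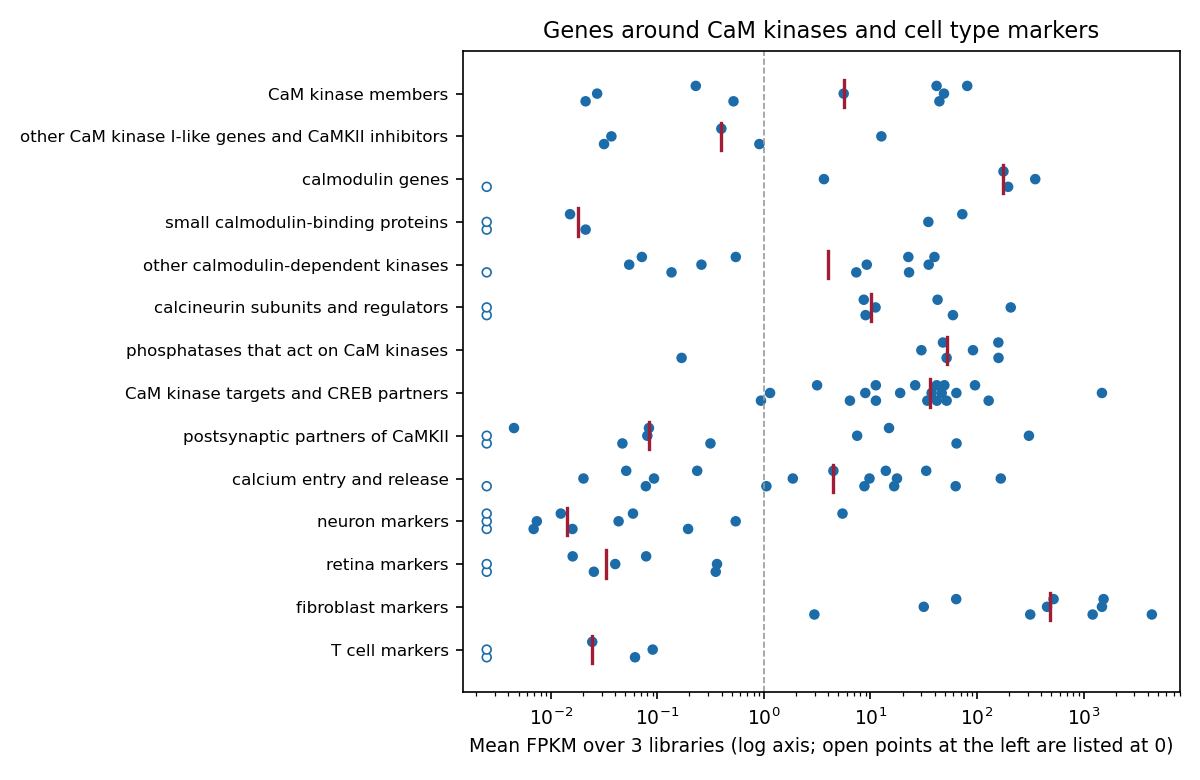
Mean FPKM over 3 libraries on a log axis for each gene of 14 lists, with a point per gene, red bars at each list's median, and open points at the left for genes listed at 0. Fibroblast markers have a median of 489 FPKM, the target list 35.8 and the CaM kinase genes 5.61, whereas neuron, retina and T cell markers lie almost entirely below the dashed line at 1 FPKM.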

How the data were processed

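UMI-RNAseq was performed on 3 libraries of NIH3T3 cells in 1 condition. According to the methods, barcodes were read with UMI-tools, reads were mapped with Hisat2, and reads with the same position and barcode were removed before HTSeq counting (the submitters' processing notes list UMI-tools 1.0.0, HISAT2 2.0.4 and HTSeq 0.6.1). The authors divided the counts by gene length and library total and deposited FPKM values. The genome build and annotation of the counting are not given in the sources used here. Both deposited tables hold the same values for 55573 genes, and 0 columns were left unused. The series' imaging was not analysed here.

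The fragments behind each FPKM were recovered in Python (3.11.15, with pandas 2.3.3 and numpy 2.4.6). The deposited values correspond to the mean isoform length in GENCODE M21 (GRCm38). The library total was the value that makes the commonest product of FPKM and length among genes with 1 isoform equal to 1 fragment. Fragments came out whole within 0.0001 times the count for 25976 of 26193 genes with a fragment (99.2%) and for all 9 CaM kinase genes. This tolerance grows with the count, so the check says little for genes with very many fragments. For the CaM kinase genes the largest distance from a whole number was 1.36e-12. The step was tested on simulated data.

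No count model was used, since the deposited values are FPKM. Ratios were taken within a library and tested on log2(FPKM + 0.1) by flipping the signs of the ratios over all combinations (exact permutation test, two-sided), which cannot go below 0.25 with 3 libraries. Intervals are exact 95% Clopper-Pearson or Poisson intervals (scipy 1.17.1) and, like the limit of 3 fragments for a count of 0, cover counting error only. Shared sequence was measured over 75-nt words on either strand of the annotated transcripts. Promoters came from RefSeq (GRCm38.p6). Figures were drawn with matplotlib 3.10.9.

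All CaM kinase genes are named. Of each list the highest and lowest genes are named, with genes that a comparison rests on and overlapping genes. Some members of the lists are not reported here. The genes and lists were chosen with earlier results of these data known. The alternatives were other pseudocounts, gene lengths, scalings and FPKM limits, the median, and leaving out each library.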

Additional observations from a re-analysis of the deposited data

How the results depend on the processing

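The limits of these data are 1 condition, 3 libraries whose independence is not stated, and few fragments for Camk2a, Camk2b, Camk4 and Camk2n1. No p-value could fall below 0.05, since 3 libraries allow 0.25 at best, so the tests say nothing of stability. No paired analysis was possible because there are no groups to pair, and the ratios were taken between genes within each library. The 7 log2 ratios kept their sign in 56 of 56 values under other pseudocounts, lengths and with each library left out. Most of these values could not have turned. A pseudocount added to both genes cannot change a sign. Leaving out a library cannot either, since each ratio had the same sign in all 3 libraries. Only the other lengths could have turned a sign. The pseudocount set the size of ratios to low genes: from a pseudocount of 1 to 0.01, Camk2a to Camk2b went from 0.30 to 1.16 on the log2 scale and Camk2n1 to the summed subunit genes from -6.93 to -11.99. Of 72 member levels under alternatives, 52 stayed within the SD of the libraries, and 20 moved by more: 8 when rescaled to a fixed sum per library (TPM), 7 with the longest isoform and 5 with the mean length of protein-coding isoforms. With 3 libraries, neither the median nor leaving out a library can move a mean by more than that SD. Levels under those alternatives therefore stayed by arithmetic, and the count of 52 is no measure of stability. The number of CaM kinase genes detected was 5 at limits of 1 and 5 FPKM, 7 at 0.1 FPKM and 9 with any FPKM above 0. Of all 55573 genes listed, 26193 had a fragment in any library. No share over all genes was taken at 0.1 or 5 FPKM. Camk4 is counted among the 9 on 2 fragments in all. The Camk2d share of 65.6% became 69.5% with the longest isoform, 77.1% undivided by length and, in an alternative chosen after the data were examined, 64.3% with protein-coding isoforms, which follows from the lengths themselves. With each library left out it was 65.4% to 65.8%. The pseudocount does not affect the order of the genes.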

Other observations

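Genes for calcium entry and release, which supply the signal that CaM kinases read, were measured as a list. Of 17 such genes, 11 reached a mean of 1 FPKM and the median was 4.49 FPKM, beside 49.2% and 0.804 FPKM over protein-coding genes. The highest was Atp2a2, the calcium pump of the endoplasmic reticulum, at 167.2, 167.7 and 166.7 FPKM, and the lowest was Ryr2, the calcium release channel of heart muscle, listed at 0 in every library. Named after their values were seen, the inositol trisphosphate receptor genes Itpr3, Itpr2 and Itpr1 were at 63.1 ± 0.951, 33.4 ± 0.930 and 16.7 ± 0.610 FPKM (SD, n = 3). The ryanodine receptor genes Ryr1 and Ryr3 were at 0.0202 ± 0.0101 and 0.0929 ± 0.0291 FPKM.

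Of 6 genes for small calmodulin-binding proteins that are not kinases, 2 reached 1 FPKM, beside 49.2% of protein-coding genes. The highest was Marcksl1, a membrane-bound calmodulin and actin binding protein, at 72.8 ± 3.75 FPKM (SD, n = 3). The neuronal calmodulin-binding protein gene Nrgn was listed at 0. Of 12 other calmodulin-dependent kinase genes, 6 reached 1 FPKM, which is near the share of all protein-coding genes. Eef2k, which phosphorylates an elongation factor of translation, was the highest at 39.9 ± 1.09 FPKM (SD, n = 3), and Mylk4 was listed at 0.

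The RefSeq windows of 250 bases before the RefSeq start site matched 5 of the 9 CaM kinase genes. The windows of Camk2b (chr11:6065749-6065998) and Camk2d (chr3:126596701-126596950) lie inside the GENCODE gene spans given above. That of Camk1 overlaps its gene in part. The dinucleotide CG occurred 44 times in the window of Camk2b, 32 in Camkk2, 29 in Camkk1, 23 in Camk2d and 11 in Camk1, beside a median of 6 over 32851 promoters. As many or more were found in 0.539% of promoters for Camk2b and in 35.6% for Camk1. Camk2b, at 0.229 FPKM, had the most of the 5 and Camk1, at 44.4 FPKM, the fewest. Between them in CG number, Camkk2 was at 49.0, Camkk1 at 5.61 and Camk2d at 80.9 FPKM. A relation of CG number to level was not tested.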
